A study of Mus musculus with 24 samples.

Results

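The mammary glands compared here came from mice that had been given no hormone, only the vehicle. The 3 arrays of the 28 h oil group were set against the 9 oil arrays of 4, 16 and 76 h, 3 at each time, so that 12 of the 24 arrays of the series entered the comparison. The groups were taken from the sample titles, but the comparison was chosen with earlier results of these data known. All mice were nulliparous Balb/c females ovariectomized at 6 weeks of age and rested for 2 weeks. They then received 100 µl of sesame oil subcutaneously each day, and tissue was taken 28 h, or 4, 16 or 76 h, after the first dose. The remaining 12 arrays came from mice given 1 mg of progesterone in the same oil for the same times. Each array carried the RNA of 5 pooled mice, 15 per group, so that the spread between arrays is that between pools and not between single mice. With daily dosing, mice killed at 28 h or 76 h had received more than 1 dose. Elapsed time and the number of doses cannot be told apart in these groups. If doses were exactly 1 day apart, tissue at 4, 28 and 76 h was taken 4 h after the latest dose. At 16 h it was taken 16 h after the latest dose. The clock hour of the injections is not given in the sources used here.

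The mammary gland is a tree of epithelial ducts, with inner luminal cells and an outer contractile basal layer, set in a fat pad. The fat pad also holds fibroblasts that lay down collagen and other matrix, blood vessels, macrophages, mast cells, lymphocytes and often a lymph node, and thin skeletal muscle lies against it. Removal of the ovaries takes away most circulating oestrogen and progesterone, and the epithelium becomes largely quiescent. Milk protein genes such as the caseins are switched on by prolactin and glucocorticoid in pregnancy, through the transcription factor Stat5. Many tissues also run a circadian clock, in which Arntl and Clock activate Per genes and Dbp, whose levels rise and fall in opposite phase to Arntl.

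The samples carried the markers of the labelled tissue. The luminal keratin Krt18 had intensities of 2130, 2210 and 1978 on the 28 h arrays, against 1711 to 2350 on the other oil arrays with a median of 1997, and the adipocyte hormone Adipoq had 11787, 11398 and 10238, against 10802 to 12144 with a median of 11441. The groups overlapped for both (adjusted p = 0.652 and adjusted p = 0.653 in limma's moderated test). Array medians lay between 62.78 and 69.48 over the 12 oil arrays, and log2 values of 2 arrays of a group correlated with r of 0.9723 to 0.9924 across genes. The log2 ratio of 3' to 5' control probes for actin, a measure of RNA integrity, was 0.459 ± 0.084 at 28 h and 0.357 ± 0.071 at the other times (SD, n = 3 and 9, exact permutation p = 0.0591). For Gapdh it was -0.107 ± 0.036 and -0.115 ± 0.085 (exact permutation p = 0.859, two-sided). The part of RNA integrity in the results was not tested. Replicate 3 of the 28 h group stood apart from replicates 1 and 2 on the second principal component of the 12 oil arrays, at -25.8 against 10.3 and 5.09, and gave values closer to those of the other times in several of the gene groups that follow.

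The 28 h oil glands differed from the other oil glands mainly through genes that were lower. Of 12352 genes tested, 939 were called at an adjusted p under 0.05, which is 7.6% of the genes. Of these, 185 were higher (1.5%) and 754 were lower (6.1%). The log2 difference, taken as the 28 h mean minus the mean of the 3 other times, was at least 1 for 9 of the higher and 123 of the lower genes, and its median over all genes was -0.03. The 3 arrays of 28 h lay all above the 9 others for 182 genes (1.47%) and all below them for 703 (5.69%). Without replicate 2 of 28 h the calls numbered 587. The count of higher genes was 99, 59 and 306 without replicates 1, 2 and 3 of 28 h and 114 without replicate 1 of 76 h. When arrays were weighted by their fit, 5150 genes were called, 2110 of them higher.

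The largest rises were those of 2 casein genes. Csn2, which encodes beta-casein, had intensities of 1194, 575 and 212 at 28 h, against 3.38 to 12.9 at the other times with a median of 6.64. Each 28 h array was above all 9 others, and the 28 h arrays also differed widely among themselves. The log2 difference was 5.98 ± 0.39 (SE, adjusted p = 1.79e-09), but 7 of the 9 other values lay below the floor of 7.38, so that the change is understated. Csn1s2a, another calcium-binding casein gene, had 668, 307 and 81.9 at 28 h, against 3.38 to 12.8 at the other times (4.88 ± 0.46, adjusted p = 2.33e-07), and 4 of its 9 other values lay below the floor, so that this change is understated too. In both genes replicate 1 was highest and replicate 3 lowest. The filter on low values kept genes above the array median on at least 3 arrays. For these 2 genes only arrays of 28 h reached it, and for Csn1s2a only the 3 oil arrays. Both thus entered the test through the group in which they were high, and their p values are not independent of that filter. The Csn2 promoter is shown because Csn2 had the largest change. It covers the 250 bases upstream of the RefSeq start (GRCm38.p6, chr5:87699426-87699675, minus strand), in capitals where the palindromic Stat5 motif TTCNNNGAA (GAS element) was found:
Csn2: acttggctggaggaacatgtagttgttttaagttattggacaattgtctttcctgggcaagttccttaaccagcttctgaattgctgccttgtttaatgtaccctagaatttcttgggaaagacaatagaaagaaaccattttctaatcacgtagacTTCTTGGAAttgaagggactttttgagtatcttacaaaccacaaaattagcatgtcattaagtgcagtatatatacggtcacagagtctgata
The match began 93 bases before the start. The Csn1s2a window held none, which says only that these letters are not in that window. Of 10 RefSeq promoters found for 9 of the 14 tested members of the milk list, 2 held the motif (20%), against 7.02% of 32851 promoters of the same length.

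The other milk genes were mixed. Of 14 tested members of a list of milk protein and secretory genes, 2 were higher, 1 was lower and 11 were not called, with a median log2 difference of -0.05. The 2 higher were Csn2 and Csn1s2a, which passed the filter only through 28 h arrays, so that their count is no separate support. The third call was Xdh, an enzyme needed to envelop milk fat droplets, with 1070, 1070 and 1063 at 28 h, against 1158 to 1525 at the other times (-0.40 ± 0.08, adjusted p = 0.00285). Its 28 h arrays lay below all others. Csn3, the kappa-casein gene, had 1355, 1214 and 1340 at 28 h, against 1241 to 2008 (-0.39 ± 0.16, adjusted p = 0.136). Lalba, a subunit of lactose synthase, had 73.1, 70.8 and 69.3 against 55.7 to 187 (-0.46 ± 0.20, adjusted p = 0.184). For both the groups overlapped. The milk-fat coat protein Plin2 stood at -0.11 and Mfge8 at 0.08, with adjusted p of 0.445 and 0.352. Csn1s1, Csn1s2b and the whey acidic protein gene Wap lay too low for the filter on low values and were not in the main test. Csn1s1 had 207, 68.7 and 54.8 at 28 h, against 17.1 to 32.5 at the other times, and Wap had 84.9, 42.8 and 24 against 6.68 to 19.1. Both showed the order of Csn2 and Csn1s2a among the 3 arrays of 28 h, with no overlap between the groups. With no filter their log2 differences were 1.90 and 1.67 (adjusted p = 0.000834 and adjusted p = 0.00373). Csn1s2b had 11.5, 14.5 and 15.6 at 28 h, against 3.38 to 16.3, with overlap and replicate 3 highest. Its log2 difference with no filter was 0.42 and was not called (adjusted p = 0.459). Slpi, a secreted inhibitor of leukocyte proteases, had 2656, 3944 and 3563 at 28 h, against 252 to 1687 (2.08 ± 0.55, adjusted p = 0.019), and lost its call without replicate 2 or 3 of 28 h (adjusted p = 0.0917 and adjusted p = 0.063).

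**Figure D1:**
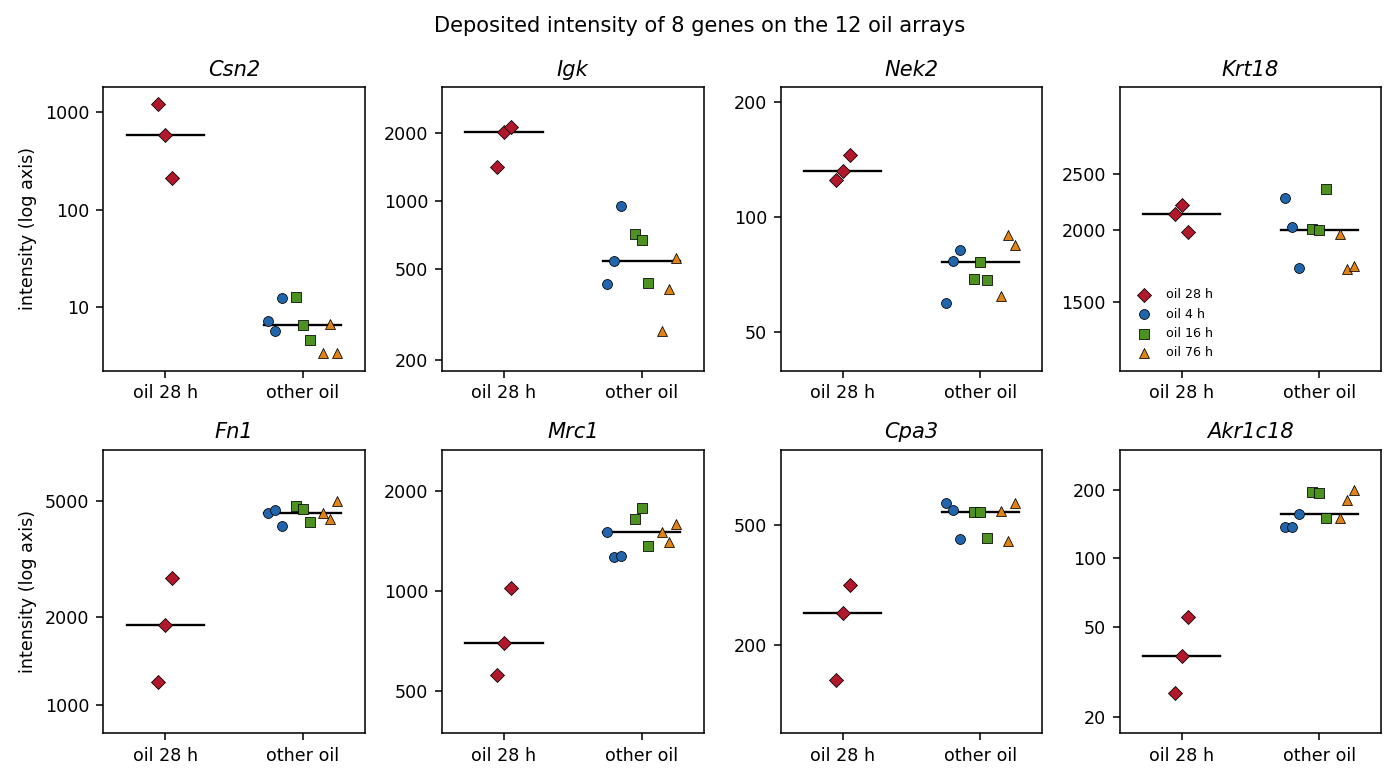
Intensity on a log axis for 8 genes, with the 3 oil arrays of 28 h on the left and the 9 oil arrays of 4, 16 and 76 h on the right of each panel; lines are medians. Csn2, Igk and Nek2 lay higher at 28 h with no overlap, Krt18 overlapped, and Fn1, Mrc1, Cpa3 and Akr1c18 lay lower at 28 h with no overlap.

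Epithelial markers as a group did not part the 28 h arrays. Of 23 tested luminal markers, limma called 0, with 1 higher and 1 lower at an unadjusted p under 0.05 and a median log2 difference of 0.05. Fitted to the 12 oil arrays only, 1 was lower. The luminal keratin Krt8 had 944, 854 and 828 at 28 h, against 711 to 1015 (0.07 ± 0.13, adjusted p = 0.823). The basal keratins Krt5 and Krt14 stood at -0.08 ± 0.13 and 0.18 ± 0.15 (adjusted p = 0.773 and adjusted p = 0.511). Of 21 tested basal markers, 3 were lower, against 6.1% of all genes, and 18 were not called, with a median of -0.08. The 3 were the smooth muscle actin Actg2 (-0.58), the cadherin Cdh3 (-1.31) and the keratin Krt15 (-0.93). Cdh3 lost its call without replicate 2 or 3 of 28 h (adjusted p = 0.130 and adjusted p = 0.0524), Krt15 without replicate 2 (adjusted p = 0.177) and Actg2 without replicate 3 (adjusted p = 0.0889). The smooth muscle actin Acta2 stood at -0.02. The hormone receptor genes were not called either. Pgr, the progesterone receptor, had 445, 406 and 427 at 28 h, against 235 to 588 (0.13 ± 0.17, adjusted p = 0.711), and the oestrogen receptor Esr1 had 1151, 1243 and 1159 against 944 to 1486 (-0.02 ± 0.10, adjusted p = 0.928). Prlr and Areg were not analysed here, and Greb1 did not pass the filter on low values.

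Genes of the connective tissue matrix and its fibroblasts were lower at 28 h as a block. Of 35 tested members, 30 were lower, against 6.1% of all genes, 5 were not called and none was higher. All 35 log2 differences were below 0, with a median of -0.67, against -0.03 over all genes. The 28 h arrays lay all below the 9 others for 28 members, against 5.69% of all genes tested. Fn1, which encodes fibronectin, had intensities of 1202, 1877 and 2721 at 28 h, against 4119 to 5006 at the other times with a median of 4569. All 3 arrays lay below the others, replicate 1 lowest and replicate 3 highest (-1.31 ± 0.13, adjusted p = 5.4e-07). A second, dimmer probe set of Fn1 stood at -0.36 and was not called (adjusted p = 0.274). Vcan, a large matrix proteoglycan, had 36.0, 51.2 and 81.5 at 28 h, against 114 to 191 (-1.47 ± 0.19, adjusted p = 1.16e-05). Mfap5, a protein of elastic microfibrils, had 621, 808 and 1196, against 1796 to 2700 (-1.33 ± 0.14, adjusted p = 7.36e-07). The same order among the arrays was seen in both. Cthrc1, a secreted collagen-triple-helix protein, had 27.2, 27.3 and 19.7, against 57.7 to 141 (-1.75 ± 0.21, adjusted p = 6.59e-06), with replicate 3 the lowest. Over the list, replicate 3 was the highest of the 3 arrays of 28 h for 25 of 35 members (71.4%), against 31.7% of all genes tested.

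The abundant fibrillar collagens were lower by less. Col1a1, the chain that with Col1a2 makes type I collagen, had 4321, 4515 and 3462 at 28 h, against 4889 to 8182 (-0.52 ± 0.12, adjusted p = 0.00536), and lost its call without replicate 3 of 28 h (adjusted p = 0.0639). Its second probe set stood at -0.20 (adjusted p = 0.618). Named after their values were seen, Col3a1 stood at -0.30, Col1a2 at -0.56, Col5a2 at -0.77 and the fibril-associated Col14a1 at -1.16, and the fibroblast receptor Pdgfra at -0.49, each of them called. Sparc, Bgn and Pdgfrb, which had the highest means among the 5 members not called, stood at -0.15, -0.17 and -0.16 with adjusted p of 0.0636, 0.0583 and 0.197. In these pooled bulk samples, fewer cells of a type and less RNA per cell cannot be told apart. The count of lower members was 29 to 32 when any 1 of the 12 oil arrays was left out. Among the genes with the largest falls outside the list were further secreted or matrix proteins. These were the small leucine-rich proteoglycan Omd (-1.50), the glypican Gpc3 (-1.58), the plasminogen activator Plat (-1.57), Crispld1 (-1.57) and Angptl1 (-1.57). A second, dimmer probe set of Angptl1 stood at 0.24 and was not called (adjusted p = 0.430).

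Tissue macrophage genes were lower too. Of 23 tested macrophage and myeloid markers, 14 were lower and 1 was higher, against 6.1% and 1.5% of all genes. The other 8 were not called, and the median was -0.39. Mrc1, the mannose receptor of resident macrophages, had 561, 698 and 1021 at 28 h, against 1267 to 1777 at the other times with a median of 1504 (-1.0 ± 0.12, adjusted p = 5.22e-06). The haemoglobin scavenger receptor Cd163 had 321, 480 and 793 against 815 to 1349 (-1.04 ± 0.17, adjusted p = 0.000209). The lectin Clec10a had 394, 592 and 833 against 995 to 1434 (-0.97 ± 0.14, adjusted p = 8.43e-05). In all 3 genes the groups did not overlap, and replicate 3 of 28 h lay nearest to the other times. The F4/80 antigen Adgre1 had 240, 254 and 439, against 457 to 694 (-0.86 ± 0.15, adjusted p = 0.000312). The members that follow were picked among those not called, for their high means, so that their smaller differences follow from that choice. Lysozyme Lyz2 had 6017, 5623 and 7101 against 6329 to 7332 (-0.13, adjusted p = 0.258), the protease Ctss stood at -0.06 and the membrane protein Laptm5 at 0.13, none of them called. The 1 higher member was Cd83, a marker of activated dendritic and B cells, at 0.51 (adjusted p = 0.0181). It was named after its values were seen and lost its call without replicate 2 or 3 of 28 h.

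Several of the largest falls of all were of genes that resident macrophages are known to express in mice. The folate receptor Folr2 had 109, 137 and 229 at 28 h, against 391 to 662 (-1.80 ± 0.18, adjusted p = 4.16e-07). Fcna, a ficolin that binds microbial sugars, had 47.1, 75.4 and 136 against 223 to 397 (-2.12 ± 0.22, adjusted p = 5.46e-07). Ccl24, a chemokine that attracts eosinophils, had 40.1, 43.1 and 54.7 against 125 to 168 (-1.72 ± 0.15, adjusted p = 7.13e-08). None of the 3 overlapped, and in each replicate 1 of 28 h was lowest and replicate 3 highest. The lectins Cd209g and Cd209f stood at -1.51 ± 0.16 and -0.89 ± 0.14 (adjusted p = 1.61e-06 and adjusted p = 9.96e-05). Between 12 and 14 macrophage markers were lower when any 1 oil array was left out. Replicate 3 was the highest of the 3 arrays of 28 h for 18 of the 23 members (78.3%).

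Neutrophil and mast cell markers had a median of -0.75. Of 14 tested, 5 were lower, against 6.1% of all genes, and 9 were not called. Of these 5, 4 encode mast cell proteases. Cpa3, mast cell carboxypeptidase, had 152, 255 and 316 at 28 h, against 444 to 594 (-1.19 ± 0.17, adjusted p = 5.27e-05). The chymase Mcpt4 had 214, 246 and 249 against 365 to 623 (-1.16 ± 0.17, adjusted p = 4.9e-05), and the chymase Cma1 had 238, 274 and 323 against 463 to 645 (-1.02 ± 0.14, adjusted p = 3.26e-05). All 3 proteases were below every other array at 28 h. The tryptase Tpsb2 was lower with overlap (-0.74, adjusted p = 0.00152), and another probe set of it stood at 0.15 with an adjusted p of 0.646. The mast cell receptor Kit stood at -0.05 and was not called. The neutrophil genes S100a8 and S100a9 varied widely, S100a8 with 443, 212 and 1612 at 28 h, against 205 to 4306 (-1.11 ± 0.67, adjusted p = 0.352).

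**Figure D2:**
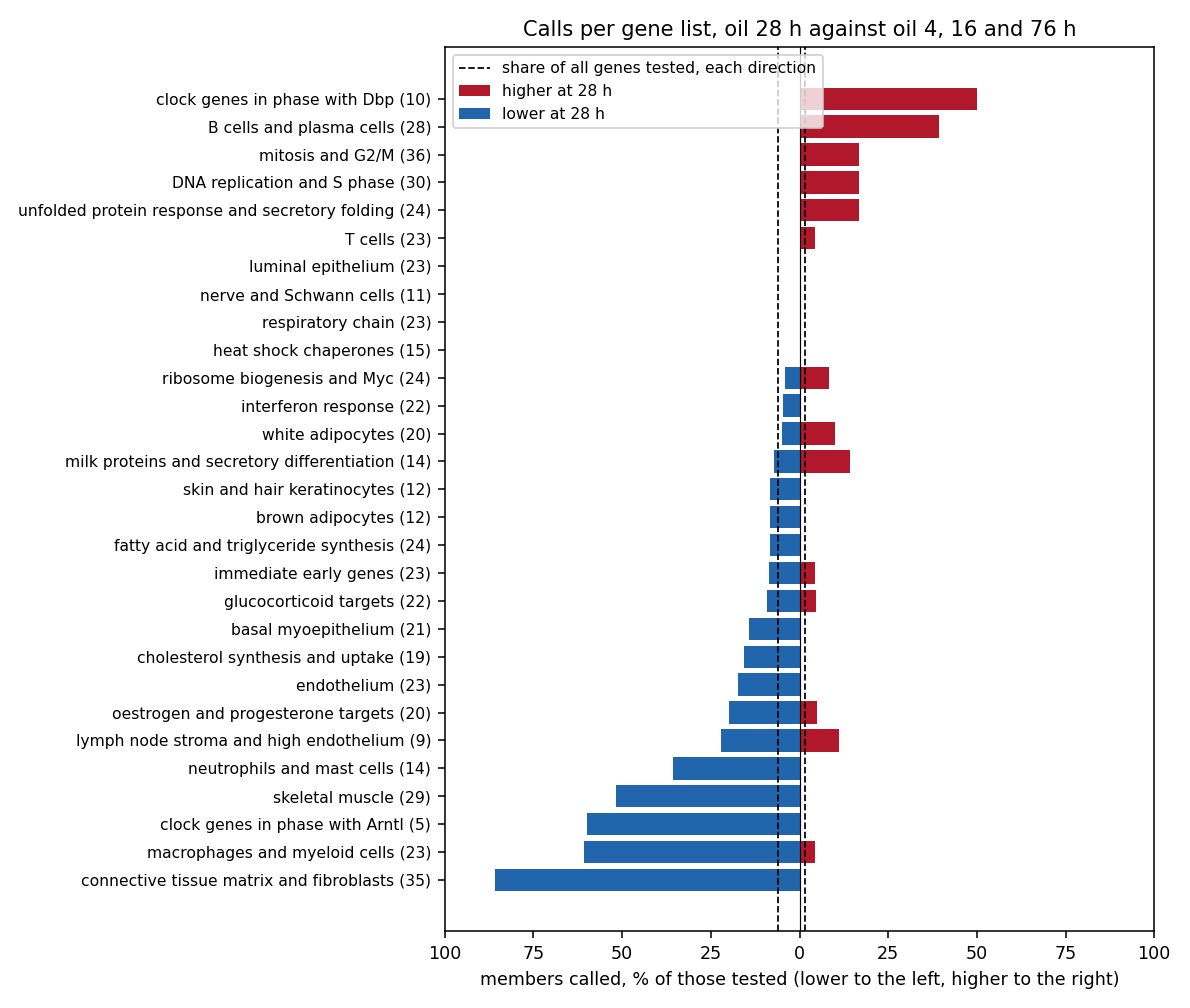
Share of the tested members of each gene list that was called lower (left) or higher (right) in the 28 h oil arrays than in the other oil arrays, with the number tested in parentheses and dashed lines at the shares over all genes tested (6.1% lower, 1.5% higher); lists with under 5 tested members are left out. The matrix list has 30 of 35 members to the left, and the B and plasma cell list has 11 of 28 to the right.

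B cell and plasma cell genes were higher at 28 h. Of 28 tested markers, 11 were higher, against 1.5% of all genes, 17 were not called and none was lower. The median was 0.41, with 27 of 28 values above 0. The immunoglobulin kappa gene entry Igk had 1413, 2023 and 2114 at 28 h, against 268 to 953 at the other times with a median of 546 (1.80 ± 0.39, adjusted p = 0.00427). Its 3 other probe sets stood at 1.03, 1.27 and 0.10 and were not called (adjusted p = 0.136, 0.0908 and 0.903). Jchain, which links secreted IgA and IgM, had 6266, 6980 and 7461 against 2976 to 4924 (0.76 ± 0.18, adjusted p = 0.0071). Mzb1, a chaperone of antibody assembly, had 1478, 1742 and 1448 against 480 to 868 (1.2 ± 0.25, adjusted p = 0.0027). No array of 28 h overlapped the others in these genes. Derl3, which takes part in removing misfolded secretory proteins, had 133, 190 and 220 against 46.6 to 124 (1.02 ± 0.18, adjusted p = 0.000415). The elongation factor partner Eaf2 stood at 1.23 ± 0.24 (adjusted p = 0.00161). Igkv6-14, a kappa variable segment, was also higher (1.25 ± 0.29, adjusted p = 0.00698), and lost its call without replicate 2 of 28 h (adjusted p = 0.108). Probe sets for immunoglobulin segments can read near-identical family members, so that these entries are uncertain as to the segment.

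Several other B cell markers were not called. Cd79a, a signalling chain of the B cell receptor, had 3183, 2813 and 1313 at 28 h, against 1079 to 2283 (0.56 ± 0.23, adjusted p = 0.149), and Cd79b stood at 0.31 (adjusted p = 0.113). The heavy chain Ighm had 5619, 4944 and 6370 against 4719 to 6398 (0.04, adjusted p = 0.863). Its 6 dimmer probe sets were not called either, but 5 of them stood between 0.94 and 2.15 (adjusted p of 0.0546 to 0.0777) and the sixth at 0.12, so that the probe sets of Ighm disagree in size. The complement receptor Cr2, carried by B cells and follicular dendritic cells, had 1590, 1496 and 1300 against 754 to 1279 (0.52 ± 0.13, adjusted p = 0.0103), and lost its call without replicate 1 or 2 of 28 h (adjusted p = 0.077 and adjusted p = 0.058). Of 23 T cell markers, 1 was higher, the cytokine receptor Il7r (0.43 ± 0.10, adjusted p = 0.00763), which lost its call without replicate 2 of 28 h (adjusted p = 0.0855). Cd3e had 1174, 1094 and 680 against 775 to 1008 (0.12, adjusted p = 0.627). The lymph node gene Glycam1 had 8517, 7698 and 7513, against 7934 to 9031 (-0.10, adjusted p = 0.383). Whether the amount of lymph node in the pools plays a part in these values was not tested. Genes of the unfolded protein response and secretory folding had a median of 0.07. Of 24 tested, 4 were higher, against 1.5% of all genes, and none was lower. Derl3 and Xbp1 (0.23), which stand in the B and plasma cell list too, were among them, with Creld2 (0.29) and Herpud1 (0.28), and the chaperone Hspa5 stood at -0.02. Creld2 and Herpud1 lost their calls without any of 9 and of 7 oil arrays, all 3 of 28 h among them for Herpud1 and 2 of them for Creld2 (adjusted p up to 0.218 and up to 0.121). Of the 28 B and plasma cell markers, 7 were higher when either replicate 1 or replicate 2 of 28 h was left out, and the other single arrays left out gave 10 or 11.

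**Figure D3:**
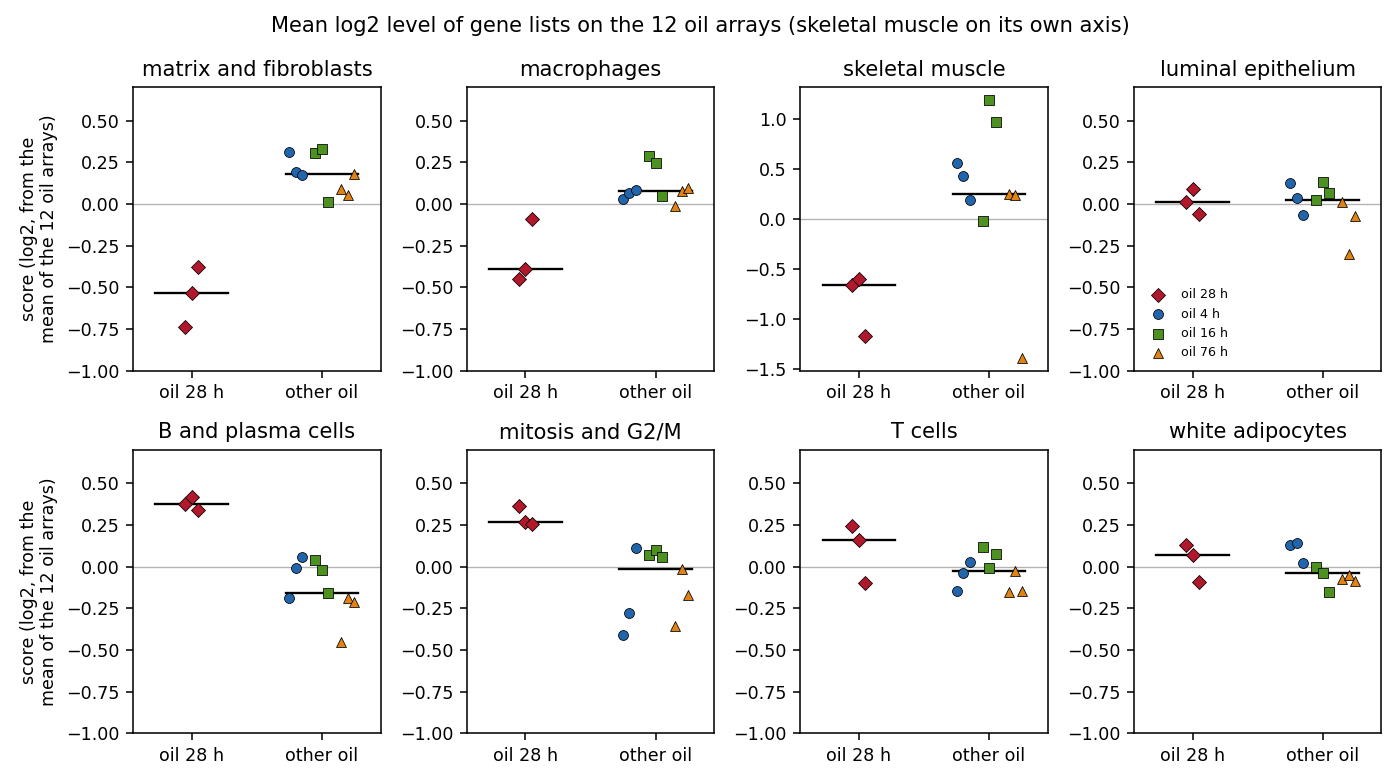
Mean log2 level of 8 gene lists on each oil array, each gene first set to 0 at its mean over the 12 oil arrays; the 3 arrays of 28 h are on the left and the 9 others on the right of each panel, with lines at the medians. Matrix scores ran from -0.74 to -0.38 at 28 h and from 0.01 to 0.33 at the other times, and B and plasma cell scores from 0.34 to 0.42 and from -0.45 to 0.06, while the luminal, T cell and white adipocyte scores overlapped.

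A minority of cell division genes was called higher at 28 h. Of 36 tested genes of mitosis and G2/M, 6 were higher, against 1.5% of all genes, 30 were not called and none was lower. Of the 36 log2 differences, 35 were above 0, with a median of 0.39. Nek2, a kinase of centrosome separation, had 125, 132 and 145 at 28 h, against 59.5 to 89.9 at the other times (0.86 ± 0.18, adjusted p = 0.00324). Its groups did not overlap. Ube2c, the ubiquitin-conjugating enzyme of the anaphase-promoting complex, had 359, 332 and 277 against 152 to 248 (0.70 ± 0.18, adjusted p = 0.0179). Mki67, the proliferation antigen Ki-67, had 711, 660 and 537 against 326 to 551 (0.65 ± 0.17, adjusted p = 0.0201), with replicate 3 inside the range of the others. Cdk1, the mitotic kinase, had 398, 312 and 345 against 180 to 289 (0.58 ± 0.17, adjusted p = 0.0345). Cdc20, an activator of the same complex, and the survivin gene Birc5 stood at 0.42 and 0.70 with no overlap but were not called (adjusted p = 0.0751 and adjusted p = 0.0827). Ube2c and Mki67 lost their calls without replicate 1 of 28 h (adjusted p = 0.101 and adjusted p = 0.114) and without replicate 2 (adjusted p = 0.0804 and adjusted p = 0.092). Cdk1 lost its call without any of the 3 arrays of 28 h, or without replicate 1 of 4 h, 2 of 16 h or 1 of 76 h (adjusted p of 0.0557 to 0.168).

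Of 30 genes of DNA replication, 5 were higher, against 1.5% of all genes, and 25 were not called. All 30 values were above 0, with a median of 0.23. The helicase subunit Mcm5 had 624, 662 and 645 at 28 h, against 352 to 544 (0.56 ± 0.14, adjusted p = 0.0129), and Mcm6 had 896, 768 and 720 against 488 to 699 (0.47 ± 0.12, adjusted p = 0.0121). Neither overlapped. Mcm5 lost its call without replicate 2 and Mcm6 without replicate 1 of 28 h (adjusted p = 0.0652 and adjusted p = 0.105). Among the other called members, Uhrf1 lost its call without any of 7 oil arrays (adjusted p up to 0.169). Lig1 lost its call without replicate 1 or 2 of 28 h (adjusted p = 0.115 and adjusted p = 0.107). The sliding clamp Pcna stood at 0.18 (adjusted p = 0.324). Outside both lists, Pclaf, a partner of Pcna, stood at 0.77 ± 0.19 (adjusted p = 0.0147, and adjusted p = 0.0799 without replicate 1 of 28 h), and Wee1, the kinase that restrains Cdk1 and also a gene of the clock output, at 0.77 ± 0.15 (adjusted p = 0.00152). Another probe set of Wee1 stood at 0.42 and was not called (adjusted p = 0.253). Counts of these lists moved with single arrays. Mitosis genes called higher numbered 1, 2 and 3 without replicates 1, 2 and 3 of 28 h, 3 without replicate 1 of 4 h, 3 without replicate 1 of 76 h and 11 without replicate 3 of 4 h. Replication genes numbered 1 and 2 without replicates 1 and 2 of 28 h. The mitosis count was 3 with no filter on low values and 13 in a fit to the 12 oil arrays only.

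The promoters of 2 of the mitosis genes are shown because the list moved together and such genes commonly carry the CHR element, read here as TTTGAA or TTCGAA on either strand. Each covers 250 bases upstream of the RefSeq start in GRCm38.p6, for Cdk1 at chr10:69352913-69353162 on the minus strand and for Ube2c at chr2:164769679-164769928 on the plus strand, with matches in capitals:
Cdk1: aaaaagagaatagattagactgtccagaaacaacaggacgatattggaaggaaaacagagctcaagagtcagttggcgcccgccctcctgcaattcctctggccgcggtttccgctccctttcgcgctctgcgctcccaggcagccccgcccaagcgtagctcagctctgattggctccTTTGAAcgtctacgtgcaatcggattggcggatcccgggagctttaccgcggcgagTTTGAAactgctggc
Ube2c: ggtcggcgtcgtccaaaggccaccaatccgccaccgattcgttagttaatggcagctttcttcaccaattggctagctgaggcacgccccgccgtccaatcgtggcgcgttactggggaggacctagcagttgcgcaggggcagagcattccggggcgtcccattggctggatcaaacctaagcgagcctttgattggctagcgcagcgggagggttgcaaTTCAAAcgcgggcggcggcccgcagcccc
In Cdk1 matches began 71 and 15 bases before the start, and in Ube2c 29 bases before it, on the opposite strand. Of 33 promoters found for 31 of the 36 tested mitosis genes, 13 held the letters (39.4%), against 17.1% of all 32851 promoters. The shares describe the windows and were not tested.

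Clock genes at 28 h differed from those at 16 h and 76 h. Of 10 tested genes in phase with Dbp, 5 were higher at 28 h than at the other times, against 1.5% of all genes. The other 5 were not called. Of 5 in phase with Arntl, 3 were lower, against 6.1% of all genes, and 2 were not called. The pairs of times were unlike. The times of 4, 28 and 76 h lie whole days apart, but the clock hour of the first injection in each group is not given. Against 4 h, limma called 0 genes of either list, with 1 of the Dbp group higher and 1 lower at an unadjusted p under 0.05. Against 16 h, 3 of the Dbp group were higher and 3 of the Arntl group lower, and against 76 h, 8 were higher and 4 lower. Dbp, a transcription factor of the clock output, averaged 2576 ± 520, 1423 ± 542, 2568 ± 81.4 and 724 ± 219 at 4, 16, 28 and 76 h (SD, n = 3 each). The log2 difference of 28 h was 0.01 from 4 h, 0.92 from 16 h and 1.88 from 76 h, with adjusted p of 0.988, 0.0362 and 8.72e-05. Per3, a repressor of the clock, had 327 ± 33.4, 211 ± 49.2, 327 ± 14.4 and 167 ± 29.5 at these times. Arntl, which drives the clock with Clock, had the opposite course, with 89.8 ± 6.75, 155 ± 39.4, 78.9 ± 5.51 and 233 ± 41.7 at 4, 16, 28 and 76 h. Its partner Npas2 had 13.3 ± 4.60, 41.2 ± 21.5, 10.5 ± 6.37 and 58.3 ± 10.5, and lost its call for 28 h without replicate 2 of 28 h (adjusted p = 0.0607). Per2 was the member of the Dbp group with no overlap, with 249, 253 and 207 at 28 h, against 127 to 190 at the other times (0.66 ± 0.18, adjusted p = 0.0218, and adjusted p = 0.0948 and adjusted p = 0.111 without replicates 1 and 2 of 28 h). Nr1d1, a repressor of Arntl, had 669, 573 and 220 at 28 h, against 240 to 1051 (0.23, adjusted p = 0.676). Without replicate 2 of 28 h, 3 of the Dbp group were higher. Of 11 RefSeq promoters of 9 genes of the Dbp group, 4 held the E-box CACGTG in the 250 bases upstream (36.4%), against 6.02% of all promoters, and 1 of 8 did in the Arntl group.

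**Figure D4:**
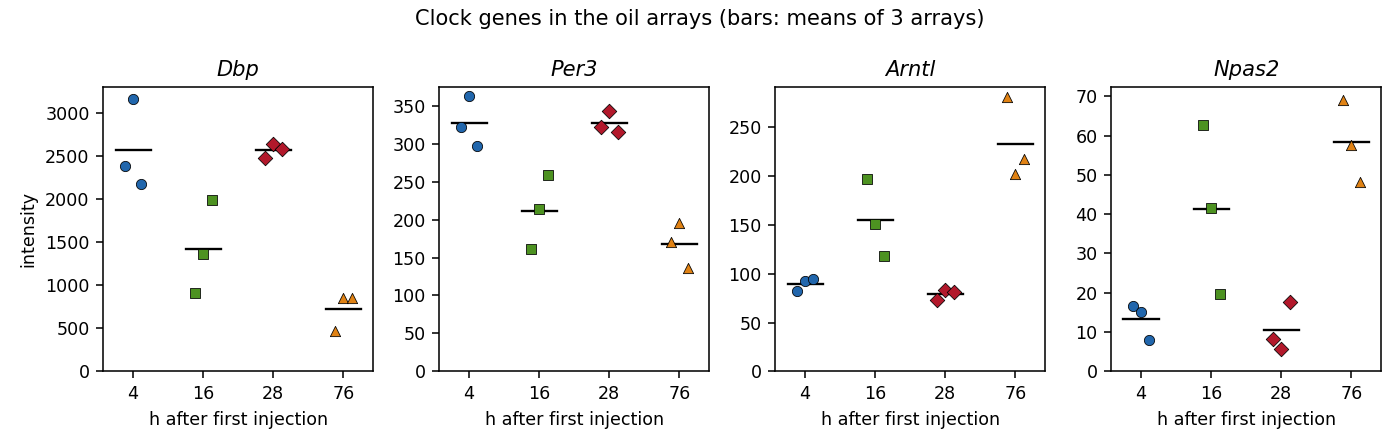
Intensity of 4 clock genes on the oil arrays by hours after the first injection, with bars at the means of 3 arrays. Dbp and Per3 were high at 4 and 28 h and low at 76 h, and Arntl and Npas2 had the opposite course.

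Skeletal muscle genes were low in the 28 h arrays, but varied widely among all oil arrays. Of 29 tested members, 15 were lower, against 6.1% of all genes, and 14 were not called. All 29 values were below 0 with a median of -1.10, yet the 28 h arrays lay all below the others for none of them. The muscle creatine kinase Ckm had 2453, 2163 and 1167 at 28 h, against 721 to 6726 (-0.98 ± 0.38, adjusted p = 0.122). The giant sarcomere protein Neb had 135, 180 and 136 against 107 to 1124 (-1.62 ± 0.44, adjusted p = 0.0227), and lost its call without any of the 3 arrays of 28 h (adjusted p of 0.0554 to 0.091). The lowest value of both genes was on an oil array of another time. Muscle scores ran from -1.17 to -0.60 at 28 h and from -1.39 to 1.19 at the other times, with the lowest on replicate 3 of 76 h. Against 16 h alone 23 members were lower, with a median of -1.63. Against 4 h 1 was lower, with 25 lower at an unadjusted p under 0.05 and a median of -1.26. Against 76 h limma called 0, with 1 lower at an unadjusted p under 0.05 and a median of -0.55. Without replicates 1, 2 and 3 of 28 h the count of lower members was 7, 5 and 0, and it was 9 without replicate 2 of 16 h or replicate 1 or 2 of 76 h. It was 3 with no filter or with a robust variance. Muscle did not follow the order of the matrix and macrophage genes among the 28 h arrays. It was lowest on replicate 3 of 28 h (-1.17), where the matrix (-0.38) and macrophage (-0.09) scores were the highest of the 3. The part of muscle in those results was not tested.

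The remaining cell type lists gave few calls. Over all genes tested 6.1% were lower and 1.5% higher, so that counts of 1 or 2 in these lists are not read as results about the cell types. Of 20 tested white adipocyte markers, 2 were higher, the imprinted gene Nnat (0.91 ± 0.21, adjusted p = 0.00815) and the natriuretic peptide receptor Npr3 (0.48, adjusted p = 0.0433), and 1 was lower, angiotensinogen Agt (-0.39, adjusted p = 0.0343). Nnat lost its call without replicate 2 of 28 h (adjusted p = 0.0889), Npr3 without any of 9 arrays (adjusted p up to 0.168), and Agt without any of 6 (adjusted p up to 0.159). Other probe sets of Npr3 stood at 0.25 and -0.12 and were not called (adjusted p = 0.517 and adjusted p = 0.741). The adipocyte lipid carrier Fabp4 stood at -0.01. Of 12 brown adipocyte markers 1 was lower, Cox7a1 (-0.66, adjusted p = 0.0281), which lost its call without replicate 2 or 3 of 28 h or replicate 2 of 16 h (adjusted p of 0.0535 to 0.182). Of 23 endothelial markers, 4 were lower and 19 were not called, with a median of -0.12. Of these, Aplnr (-0.56), Emcn (-0.51) and Lyve1 (-0.43) each lost its call without 1 or another array of 28 h (adjusted p of 0.0652 to 0.137). Another probe set of Lyve1 stood at 0.12 and was not called (adjusted p = 0.541). The angiopoietin receptor Tek had 387, 422 and 354 at 28 h, against 471 to 647 (-0.60 ± 0.10, adjusted p = 0.000177), with no overlap, while the adhesion molecules Cdh5 (-0.10) and Pecam1 (-0.17) and the VEGF receptor Kdr (0.12) were not called. The podoplanin gene Pdpn, a marker of lymphatic vessels and stroma, was lower (-0.46 ± 0.08, adjusted p = 0.000687). Of 12 skin and hair markers 1 was lower, Krt10 (-0.61, adjusted p = 0.027), which lost its call without replicate 1 or 2 of 28 h or replicate 2 of 16 h (adjusted p of 0.0519 to 0.111). The hair follicle gene Tchh had 5.12, 9.92 and 4.23 at 28 h, against 6.98 to 630 (-2.96 ± 1.18, adjusted p = 0.136). Sbsn, another epidermal gene, stood at 0.13 (adjusted p = 0.894), but another probe set of it was called lower (-0.88, adjusted p = 0.0072). Of 4 red blood cell markers, Bpgm was lower (-0.35), and lost its call without replicate 3 of 28 h (adjusted p = 0.0977). The haemoglobin gene Hbb-b2 stood at 0.33 (adjusted p = 0.643), but another probe set of it was called lower (-1.05, adjusted p = 0.0385). Of 11 nerve and Schwann cell markers, limma called 0, with 1 higher and 3 lower at an unadjusted p under 0.05.

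Among metabolic and signalling programmes, Akr1c18 had the largest fall among genes that were called and did not overlap. It encodes the 20-alpha-hydroxysteroid dehydrogenase that inactivates progesterone, and had 25.4, 37.0 and 55.2 at 28 h, against 137 to 200 at the other times with a median of 157 (-2.15 ± 0.17, adjusted p = 4.49e-08). All 3 arrays were below every other oil array, and the 28 h mean was 4.44-fold lower on the log2 scale. It stands in a list of 20 oestrogen and progesterone targets, with a median of 0.02. Of these, 4 were lower and 1 (Xbp1) higher, against 6.1% and 1.5% of all genes, and 15 were not called. Fgg (-0.76) and Cacna1g (-0.73), also lower, lost their calls without any of 5 and of 8 oil arrays (adjusted p up to 0.142 and up to 0.299). Igfbp3, a carrier of insulin-like growth factors, had 542, 707 and 673 against 890 to 1465 (-0.90 ± 0.13, adjusted p = 3.45e-05). The cyclin Ccnd1 stood at 0.09 and the chemokine Cxcl12 at -0.07, neither called. Other large falls were those of Qpct, which forms pyroglutamate on secreted peptides (-1.98 ± 0.19), Tmem100, a membrane protein of vessels (-1.82 ± 0.17), Efhd1, a calcium-binding mitochondrial protein (-1.53 ± 0.12), and Mup10, a major urinary protein whose probe set can read near-identical copies (-1.53 ± 0.29).

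Of 19 tested genes of cholesterol synthesis and uptake, 3 were lower and 16 were not called, with a median of -0.25. Hmgcs1, which makes the precursor HMG-CoA, had 1434, 1194 and 1097 at 28 h, against 1238 to 2393 (-0.49 ± 0.11, adjusted p = 0.00484), and lost its call without replicate 3 of 28 h (adjusted p = 0.0501). Pmvk (-0.51) and Cyp51 (-0.47), both enzymes of the pathway, lost theirs without replicate 2 or 3 of 28 h, and Cyp51 also without 5 oil arrays of other times (adjusted p up to 0.145 and up to 0.168). Other probe sets of these genes were lower by more, those of Hmgcs1 at -0.52, -0.63 and -0.90 (adjusted p of 4.59e-05 to 0.00455) and that of Cyp51 at -0.83 (adjusted p = 0.00367). The count of lower members was 6, 1 and 0 without replicates 1, 2 and 3 of 28 h, and 7 against 76 h alone. The lists that follow had 1 or 2 calls in a direction, against 6.1% lower and 1.5% higher over all genes tested. Such counts are not read as results about the programmes. Of 24 genes of fatty acid and triglyceride synthesis, 2 were lower, the desaturase Scd2 (-0.43 ± 0.09, adjusted p = 0.00204) and the lipase Pnpla3 (-0.88 ± 0.25, adjusted p = 0.0294). Both lost their calls without replicate 2 of 28 h (adjusted p = 0.0522 and adjusted p = 0.318). Fasn, fatty acid synthase, stood at -0.04. Of 22 glucocorticoid targets, 1 was higher, Mertk (0.43), and 2 were lower, Cdkn1a (-0.53) and Sult1a1 (-0.23), and each lost its call without replicate 2 and without replicate 3 of 28 h (adjusted p of 0.0567 to 0.149). The metallothionein Mt1 stood at 0.06. Of 23 immediate early genes, the matrix growth factor Ccn2 was higher, with 954, 1030 and 1040 at 28 h, against 505 to 838 (0.67 ± 0.14, adjusted p = 0.0023), and Fosl2 (-0.42) and Ier3 (-0.36) were lower. Fosl2 lost its call without replicate 1 of 28 h (adjusted p = 0.0694), and Ier3 without replicate 1 or 3 (adjusted p = 0.0692 and adjusted p = 0.236) and without 3 oil arrays of other times. Another probe set of Fosl2 stood at 0.03 (adjusted p = 0.960). Of 22 interferon response genes 1 was lower, Oasl2 (-0.37), which lost its call without replicate 3 of 28 h (adjusted p = 0.158). Of 24 genes of ribosome biogenesis, the helicase Ddx21 (0.37) and the pseudouridine synthase Dkc1 (0.36) were higher and Rrp9 (-1.02) was lower, and Rrp9 lost its call without any of the 3 arrays of 28 h (adjusted p of 0.0532 to 0.0883). Other probe sets of Ddx21 (0.07) and Dkc1 (0.01 and 0.23) were not called (adjusted p of 0.293 to 0.975). Of 23 respiratory chain genes and 15 heat shock chaperones, limma called 0, with 3 lower and 2 higher at an unadjusted p under 0.05.

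In each of the 3 pairs of 28 h with another time more genes were lower than higher, with a balance that varied. Against 4 h, 472 genes were called (3.82% of those tested), 59 higher (0.478%) and 413 lower (3.34%). Against 16 h, 851 were called (6.89%), 128 higher (1.04%) and 723 lower (5.85%). Against 76 h, 1036 were called (8.39%), 429 higher (3.47%) and 607 lower (4.91%). These pairs share the 28 h arrays. Of the matrix list, 30, 30 and 28 members were lower than at 4, 16 and 76 h, and of the macrophage list 14, 14 and 10. Fn1 stood at -1.28, -1.33 and -1.34 from 4, 16 and 76 h, and Csn2 at 5.90, 5.89 and 6.16. B and plasma cell genes were less even, with 5, 2 and 14 higher, and mitosis genes with 1, 1 and 5. Without single arrays the count was 223 against 4 h (replicate 1 of 4 h left out), 379 to 533 against 16 h (replicate 1 or 2 of 16 h, or 1 of 28 h) and 477 to 673 against 76 h (replicate 1 or 2 of 28 h or of 76 h).

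The other oil times were also set against each other. At 16 h against 4 h, 284 genes were called (2.3%), 65 higher (0.526%) and 219 lower (1.77%). At 76 h against 4 h, 441 were called (3.57%), 118 higher (0.955%) and 323 lower (2.61%). At 76 h against 16 h limma called 0 (0%), with 1642 genes at an unadjusted p under 0.05 and 2 called in a fit to the 12 oil arrays only. At 76 h against 4 h, 7 of the Dbp group were lower and 3 of the Arntl group higher. Of the matrix and macrophage lists, limma called 0 members in each of these 3 pairs. At an unadjusted p under 0.05, 1 matrix gene was higher and 4 lower in 16 h against 4 h, 9 were lower in 76 h against 4 h and 3 in 76 h against 16 h. For macrophage genes, 4 were higher in 16 h against 4 h, 4 lower in 76 h against 4 h and 3 lower in 76 h against 16 h. An F-test of 4, 16 and 76 h called 450 genes (3.64%), with the smallest p for Dbp, the phosphatase Ssh1, Mfng, Pdap1 and Pcsk4. Mfng, a sugar transferase that modifies Notch, had 1007 ± 146, 558 ± 29.7, 831 ± 104 and 611 ± 13.3 at 4, 16, 28 and 76 h. Ssh1, which acts on actin turnover, had 796 ± 33.0, 632 ± 99.9, 671 ± 32.7 and 417 ± 43.3. Neither gene was called for 28 h against the other times (adjusted p = 0.159 and adjusted p = 0.294). These counts moved with single arrays. For 16 h against 4 h the count was 0 and 20 without replicates 1 and 2 of 4 h, 10 to 41 without any array of 16 h, 162 to 185 without replicate 3 of 4 h or replicate 1 or 2 of 76 h, and 593 without replicate 3 of 28 h. For 76 h against 4 h it was 92 to 216 without any array of 4 h, 45, 54 and 280 without replicates 1, 2 and 3 of 76 h, and 730 without replicate 3 of 28 h. For the F-test it was 31 to 137 without any array of 4 h, 178 and 192 without replicates 2 and 3 of 16 h, 98 to 233 without any array of 76 h, and from 299 to 877 without an array of 28 h.

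**Figure D5:**
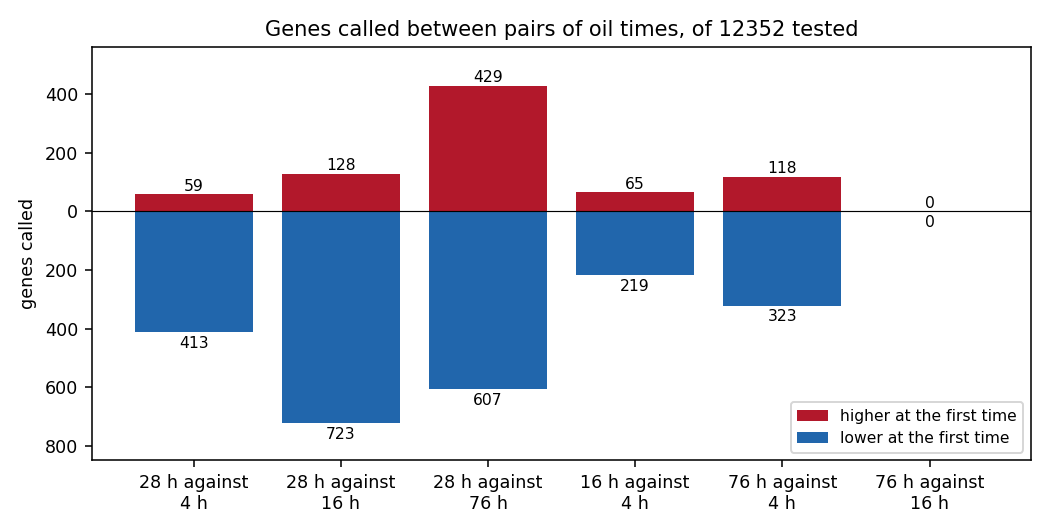
Number of genes called higher (up) or lower (down) at the first-named time in each pair of oil times. The pairs with 28 h have 413, 723 and 607 genes lower, and the pair of 76 h and 16 h has 0 calls in either direction.

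The progesterone arrays, which share no array with the oil contrast, were read in the same way, 28 h against 4, 16 and 76 h. There 71 genes were called (0.575% of those tested), 8 higher (0.0648%) and 63 lower (0.51%). Of the genes called in oil, those higher in oil had a median of 0.17 with progesterone and 79.5% of them lay above 0, against 46.1% of all genes tested. Those lower in oil had a median of -0.18 and 87% of them lay below 0, against 53.9%. List medians with progesterone were -0.26 for matrix, -0.15 for macrophages and 0.23 for B and plasma cells, against -0.67, -0.39 and 0.41 in oil, while mitosis genes stood at -0.57 against 0.39. The 76 h progesterone arrays weigh heavily in 2 of these. Mitosis scores ran from -0.54 to 0.06 at 28 h, from -0.42 to 0.34 at 4 and 16 h, and from 0.96 to 1.56 at 76 h. Matrix scores ran from -0.08 to 0.20, from 0.10 to 0.25 and from 0.70 to 0.76 in the same order. Any effect of the hormone that changes with time is part of that contrast and cannot be told apart there. Csn2 averaged 101 ± 45.8 with progesterone at 28 h, against 7.13 at its other times (3.50 ± 0.39, adjusted p = 6.67e-05). Csn1s2a stood at 1.77 ± 0.46 there (adjusted p = 0.0777) and Fn1 at -0.40 ± 0.13 (adjusted p = 0.181). The difference between the 2 contrasts was called for 90 genes (0.729%).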

How the data were processed

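RNA of mammary tissue was hybridised to 24 one-colour Affymetrix Mouse Genome 430 2.0 arrays, 3 in each of 8 groups of treatment and time. The values used were those the authors deposited for 45101 probe sets, linear intensity values, never negative. How the authors summarised and normalised the probes is not given in the sources used here. Values below the 10th percentile (an intensity of 7.38) were set to it and turned to log2 from the deposited intensities. Of the probe sets, 34945 had 1 gene symbol in the platform annotation. For each gene the probe set with the highest mean over the 24 arrays was kept if it exceeded the array median on at least 3 arrays, which left 12352 genes.

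All groups entered a limma 3.58.1 fit (R 4.3.3, intensity trend, 16 residual degrees of freedom), with Benjamini-Hochberg adjustment over all genes and calls at an adjusted p under 0.05. The fit was also run on simulated data with planted changes and independent noise for each gene. Of planted log2 changes of 0.5, 1 and 2, it called 72.5%, 95.5% and 100%. Of its calls, 4.11% were genes left unchanged. Variation shared by the genes of an array was not simulated, so that the weight of single arrays is not covered. The precision is limited by the 3 arrays of a group. The progesterone arrays entered through the shared spread and the last comparison.

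The comparison, the 30 gene lists and the tests were chosen with earlier results of these data known. Genes named were drawn from the 15 that rose most and the 15 that fell most among called genes whose groups did not overlap. Per list, up to 4 called members with the largest difference and up to 3 uncalled with the highest mean were added. A set of common markers and the 5 smallest p of the F-test completed the choice. Not every gene so chosen is described. Among those not described, Tmem198, Hlf, Myot, Tnnt3 and Ryr1 lost their calls in fits without an array of 28 h, and Clock kept its call. Genes named outside this rule are said to be named after their values were seen. Alternatives were the filter, floor, pseudocount, normalization, probe set choice, variance model, array weights, single other times and each oil array left out. Promoters came from RefSeq.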

Additional observations from a re-analysis of the deposited data

Results flagged for a closer look

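The contrast of 28 h against the other times differed between the oil and the progesterone arrays for 22 of the genes named, by a test of the difference itself (limma, Benjamini-Hochberg adjusted p under 0.05, 3 arrays in each of the 8 groups). Over all genes tested the difference was called for 90 (0.729%). Many of the named genes were chosen for a large oil contrast, which is part of the difference, so that their count is no separate support. Each value is the oil contrast minus the progesterone contrast on the log2 scale. Positive values, where 28 h stood higher in oil relative to the other times than with progesterone, were found for the caseins Csn1s2a (3.11) and Csn2 (2.48), the growth factor Ccn2 (1.33), and the cell cycle genes Mki67 (1.33), Ube2c (1.23), Cdk1 (1.19), Nek2 (1.16) and Lig1 (0.80). For the caseins these values rest on levels at the floor at other times and are not exact. Both caseins also entered the test only through 28 h arrays, so that their p values are not independent of the filter. Mki67 stood at 0.65 in oil and -0.67 with progesterone. With progesterone Mki67 had 240, 457 and 320 at 28 h, 283 to 562 at 4 and 16 h, and 846 to 1241 at 76 h. Its negative contrast there rests largely on the 76 h arrays. The same holds for Cdk1, Ube2c and Nek2 with progesterone. Cdk1 had 185 to 295 at 28 h, 178 to 304 at 4 and 16 h, and 691 to 1118 at 76 h. In the same order Ube2c had 138 to 228, 134 to 280 and 466 to 695, and Nek2 had 60.5 to 101, 45.9 to 105 and 144 to 201. Negative values were found for the desaturase Scd2 (-0.51), lactoferrin Ltf (-0.60), fibronectin Fn1 (-0.92), Mfap5 (-1.04), the mast cell chymase Mcpt4 (-1.06), Plat (-1.11), Efhd1 (-1.21), the chemokine Ccl24 (-1.28), Cd209g (-1.35), Qpct (-1.36), Folr2 (-1.38), Tmem100 (-1.40), Akr1c18 (-1.49) and Fcna (-1.50). Adjusted p values of these differences lay between 0.00111 and 0.0458.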

How the results depend on the processing

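The total of 939 calls, 185 higher and 754 lower, was 5150, 2110 and 3040 with array weights, 472, 59 and 413 against 4 h alone, 458, 48 and 410 at an adjusted p under 0.01, and 132, 9 and 123 with a log2 difference of at least 1. Higher calls were 293 with the 12 oil arrays only and 429 against 76 h alone. With 1 oil array left out the total ran from 587 to 1112, the higher calls from 59 to 306 and the lower from 528 to 884. List medians on the log2 scale moved by more than 1 SD between arrays as follows. Against 4 h alone they were -0.17 for fatty acid synthesis, 0.27 for B and plasma cells, -0.14 and 0.0038 for the Arntl and Dbp groups, 0.24 for glucocorticoid targets, 0.11 for immediate early genes, -0.14 for oestrogen and progesterone targets and -0.13 for the respiratory chain. Against 16 h alone they were 0.22 for mitosis, 0.14 for replication, -0.13 for cholesterol synthesis, -0.23 for nerve and -0.10 for oestrogen and progesterone targets. Against 76 h alone they were -0.16 for brown adipocytes, -0.42 for cholesterol synthesis, 0.59 for B and plasma cells, -0.039 for lymph node, and -0.84 and 0.84 for the Arntl and Dbp groups. Array weights gave 0.15 for replication and -0.55 for macrophages, the mean of probe sets 0.088 for white adipocytes, and no filter -0.10 for brown adipocytes. With 1 array left out, medians ran from -0.39 to -0.16 for cholesterol synthesis, from -0.47 to -0.25 for red blood cells, from -0.048 to 0.11 for immediate early genes and from -0.00136 to 0.065 for heat shock chaperones. Pairs of times ran from 223 to 520 calls for 28 h against 4 h, from 379 to 931 for 28 h against 16 h, from 477 to 1450 for 28 h against 76 h, from 0 to 593 for 16 h against 4 h, from 45 to 730 for 76 h against 4 h and from 0 to 4 for 76 h against 16 h with 1 array left out, and the F-test from 31 to 877. For 16 h against 4 h the count was 88 with no filter, 599 after quantile normalization, 448 with centred arrays and 484 with the 12 oil arrays only, for 76 h against 4 h it was 285 with centred arrays, for 76 h against 16 h 2 with the 12 oil arrays only, and for the F-test 219 with no filter. Replicate numbers did not pair the arrays (correlations of deviations from -0.132 to 0.195). With the replicate block the main total was 926, 16 h against 4 h gave 175 and the F-test 266. The difference of the log2 actin ratio, 28 h minus the other times (0.102), ran from 0.0676 to 0.149 with 1 array left out (exact permutation p = 0.0364 without replicate 1 of 28 h). Pdap1 changed sign against 4 h alone (-0.33, adjusted p = 0.0405). For the named genes, 2195 values kept direction and side of the threshold with 1 array left out, 147 lost and 22 gained a call, and under the other settings these numbers were 2894, 164 and 87. The cause of these changes was not tested, except that single times and left-out arrays use fewer arrays.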
